A study of Mus with 9 samples.

Results

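The sirtuins are a family of NAD+-dependent enzymes that remove acetyl and other acyl groups from lysines, and mice have 7 of them, Sirt1 to Sirt7. The 7 genes were taken by name from a table of 54532 genes measured by RNA sequencing of mouse kidney. All 7 passed the filter on low counts, which left 15902 genes for the tests. Sirt1, Sirt6 and Sirt7 are found mainly in the nucleus, where they act on transcription factors, chromatin and the nucleolus, and Sirt2 is mainly cytosolic. Sirt3, Sirt4 and Sirt5 are imported into mitochondria, where they act on enzymes of fat, amino acid and ketone metabolism. Each reaction uses up NAD+ and releases nicotinamide, so sirtuin activity depends on the enzymes that make NAD+ and competes with other NAD+ users such as the PARPs and CD38. In the kidney the family is best known in the proximal tubule, whose transport work is fuelled by mitochondria.

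The study asked how the kidney ages and what O304, a small-molecule activator of the energy-sensing kinase AMPK, does to it. All groups were male C57BL/6 mice with unilateral nephrectomy at 18 months of age, and each group has 3 libraries. Mice of the 18 mo group were killed without injections 1 week after the operation, the 21 mo group received saline intraperitoneally every day for 12 weeks, and the 21 mo/O304 group received O304 at 10 mg/kg/day by the same route for 12 weeks. Age, time since surgery and injection therefore cannot be told apart between 18 mo and the other groups. The labels number the libraries of a group without naming separate animals, so p-values measure the spread between these samples only.

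Counts on genes summed to between 15636378 and 18396725 per library. Replicate 3 of the 21 mo group stood apart, with a Pearson correlation of log2 CPM (counts scaled to library size) of 0.857 to 0.935 with the other libraries, which correlated with each other at 0.938 to 0.983. The labelled tissue was present in every library by its markers, but the 6 proximal tubule markers (among them Slc34a1, Lrp2 and Cubn) summed to 1513 CPM in that library, 6056 CPM in replicate 2 and 12237 CPM in replicate 1 of the 21 mo group. The other 6 libraries lay between 11530 and 15006 CPM. The 6 macrophage markers summed to 1236 CPM in replicate 3 of the 21 mo group and to 195 to 445 CPM elsewhere, and none of the proximal tubule or macrophage markers was at 0 in any library. In whole tissue, fewer cells of a type and less RNA per cell cannot be told apart.

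Levels of different genes were compared as the authors' FPKM, read pairs scaled to gene length and a library size. By the deposited counts and FPKM, that library size is not the plain sum of counts on genes. Sirt2 was the most abundant sirtuin, with a mean of 14.9 FPKM ± 1.17 (SD, n = 9), and led the family in 9 of 9 libraries. Sirt7 followed with 8.77 FPKM ± 1.81 (SD, n = 9) and Sirt3 with 8.32 FPKM ± 2.92 (SD, n = 9). Their order differed between groups, with Sirt7 above Sirt3 in 3 of 3 libraries at 18 mo, 2 of 3 at 21 mo and 0 of 3 with O304. Sirt4, at 4.58 FPKM ± 1.06 (SD, n = 9), and Sirt1, at 4.29 FPKM ± 0.556 (SD, n = 9), were in this order in 3 of 3 libraries at 18 mo but in 1 of 3 at 21 mo and 1 of 3 with O304. Sirt3 exceeded Sirt4, and Sirt1 exceeded Sirt6, in 9 of 9. Sirt6, at 2.16 FPKM ± 0.664 (SD, n = 9), was above Sirt5, at 1.71 FPKM ± 0.227 (SD, n = 9), in 8 of 9. Among all genes tested, the mean FPKM of Sirt2 stood at percentile 79.9 and that of Sirt5 at percentile 31.7.

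**Figure D1:**
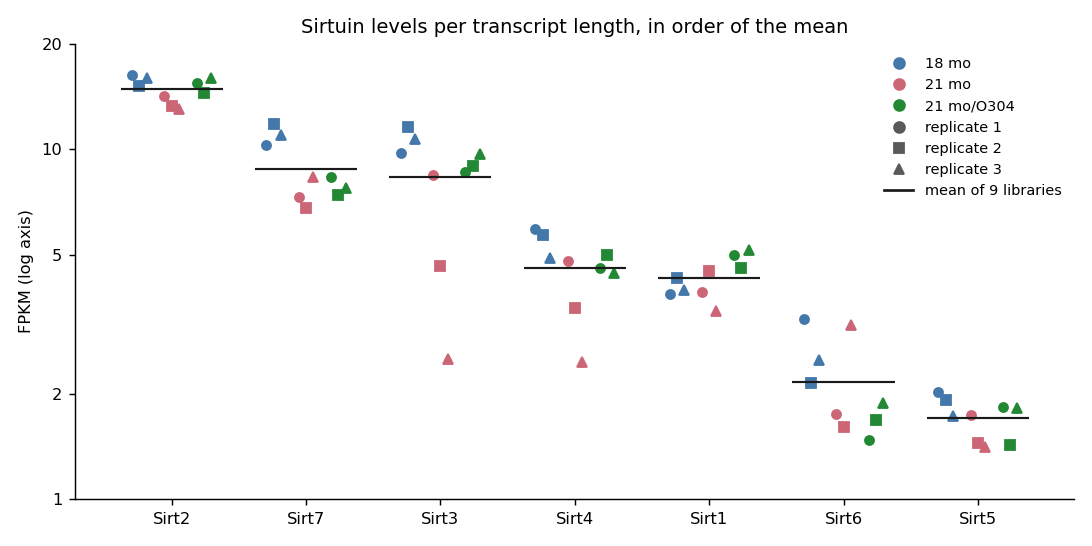
FPKM of the 7 sirtuins on a log axis, in order of the mean over 9 libraries (bar), with 1 point per library coloured by group and shaped by replicate. Sirt2 leads in every library, and the Sirt3 points of the 21 mo group spread from 2.51 to 8.46 FPKM while those of the other groups stay between 8.60 and 11.6.

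The FPKM of all sirtuins together summed to 50.8 to 52.6 in the 18 mo libraries, 34.4 to 42.2 in the 21 mo libraries and 43.5 to 46.7 in the 21 mo/O304 libraries. The 3 groups did not overlap in this sum. Sirt3 made up 19.0% to 22.0% of the sum at 18 mo and 19.0% to 20.8% in the 21 mo/O304 libraries. At 21 mo its share was 20.1%, 13.0% and 7.30% in replicates 1 to 3, so replicate 1 lay within the range of the 18 mo libraries and the other two below it.

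Each sirtuin was next followed across groups in CPM normalized by the trimmed mean of M-values (TMM). In the comparison of 21 mo with 18 mo, which addresses ageing of the kidney after surgery, the fitted log2 fold change was below 0 for all 7 sirtuins, with a median of -0.30 beside 0.03 over all genes tested. By edgeR's quasi-likelihood test with Benjamini-Hochberg adjustment, 0 of 7 sirtuins had an adjusted p under 0.05, as had 0.0189% of all genes tested (3 of 15902). At an unadjusted p under 0.05, 3 were lower (Sirt3, Sirt4 and Sirt7), where 12% of all genes were. The libraries did not overlap, with 21 mo lower, for 4 sirtuins (Sirt2, Sirt3, Sirt4 and Sirt7), where 15.3% of all genes were. DESeq2 on the 9 libraries called 2 sirtuins lower (Sirt3 and Sirt7), where it called 5.43% of genes. limma voom with sample quality weights called 6 lower (all but Sirt1), where it called 26.6%, but it gave replicate 2 of the 21 mo group a weight of 9.11 and its replicates 1 and 3 weights of 0.223 and 0.132. limma-trend on FPKM called 0 of 7. Leaving out replicate 1 of the 21 mo group raised the edgeR count to 3 of 7 (Sirt3, Sirt4 and Sirt7), but the share of all genes called also rose, to 25.4%. Leaving out its replicate 3 gave 1 of 7 (Sirt7), beside 0.806% of all genes.

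In the comparison of 21 mo/O304 with 21 mo, which addresses the treatment, 6 of 7 sirtuins had a log2 fold change above 0, and the median was 0.17 beside -0.02 over all genes tested. edgeR gave an adjusted p under 0.05 to 0 of 7 sirtuins and to 0% of all genes. At an unadjusted p under 0.05, Sirt1 and Sirt3 were higher, 2 of 7, where 8.27% of all genes were. Libraries did not overlap, with 21 mo/O304 higher, for 3 sirtuins (Sirt1, Sirt2 and Sirt3), where 10.8% of all genes were. limma voom with quality weights called 3 higher (Sirt2, Sirt3 and Sirt4), where it called 21.2% of genes, and DESeq2 and limma-trend called 0. The edgeR count was 1 of 7 (Sirt3) without replicate 1 of the 21 mo group, where 23.1% of all genes were called. Both of these comparisons rest on the same 3 libraries of the 21 mo group, so a low level there enters both with opposite sign.

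Set against 18 mo, the 21 mo/O304 group had 6 of 7 sirtuins with a log2 fold change below 0 and a median of -0.23, beside 0.0028 over all genes tested. edgeR gave an adjusted p under 0.05 to 0 of 7 sirtuins and 0% of genes. Sirt7 was lower at an unadjusted p under 0.05, 1 of 7, where 5.33% of genes were. Libraries did not overlap for Sirt3, Sirt6 and Sirt7, which were lower (3 of 7, beside 13.3% of genes), and for Sirt1, which was higher (1 of 7, beside 13.2% of genes). limma voom with quality weights called Sirt7 lower, 1 of 7, where it called 1.57% of genes, and DESeq2 on all libraries and limma-trend called 0. DESeq2 on the 6 libraries compared, an alternative chosen after seeing the data, also called Sirt7 alone among the sirtuins, beside 2.89% of genes called lower.

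**Figure D2:**
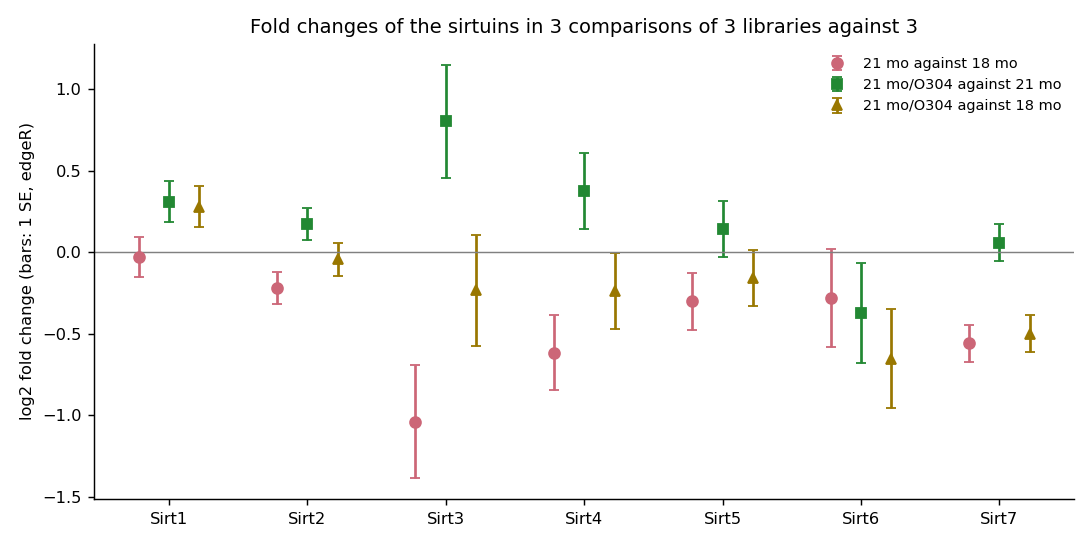
log2 fold change of each sirtuin from the edgeR fit, with circles comparing 21 mo with 18 mo, squares 21 mo/O304 with 21 mo and triangles 21 mo/O304 with 18 mo, with bars of 1 SE. Sirt3 has the widest bars and the lowest circle, at -1.04, and Sirt7 lies at -0.56 and -0.50 in the comparisons with 18 mo.

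Among the nuclear sirtuins, Sirt1 is the deacetylase of p53, FOXO factors and PGC-1α that is most often linked to AMPK. It lies on chromosome 10 from 63319005 to 63381704 on the minus strand (GRCm38), and its span holds an antisense gene, Gm16145, with 0 counts. Sirt1 measured 21.5, 23.3 and 21.7 CPM in replicates 1 to 3 at 18 mo, and 21.5, 24.6 and 19.1 CPM at 21 mo. The 21 mo/O304 libraries had 27.3, 25.2 and 28.3 CPM. The 18 mo and 21 mo libraries overlapped, while every 21 mo/O304 library lay above all 6 others. The log2 fold change was -0.03 ± 0.13 (SE) for 21 mo against 18 mo, with an adjusted p of 0.901 (edgeR). It was 0.31 ± 0.13 (SE) for 21 mo/O304 against 21 mo, an increase of 23.9%, with an unadjusted p of 0.0359 and an adjusted p of 0.219 (edgeR). Against 18 mo it was 0.28 ± 0.13 (SE), with an adjusted p of 0.521 (edgeR). The sign of the first of these values depended on the scaling, at 0.012 with upper-quartile normalization.

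Sirt6, a chromatin-bound deacetylase of histone H3 linked to DNA repair and glucose metabolism, lies on chromosome 10 from 81621785 to 81627797 on the minus strand and shares no bases with another gene. It had the fewest reads of the family, 73 to 198 counts per library. The 18 mo libraries measured 9.48, 6.10 and 7.18 CPM. The 21 mo libraries measured 5.02, 4.60 and 9.07 CPM, so that replicate 3 lay among the 18 mo libraries and the others below them. The 21 mo/O304 libraries, at 4.25, 4.83 and 5.41 CPM, were all below the 18 mo libraries. That difference had a log2 fold change of -0.65 ± 0.31 (SE), an unadjusted p of 0.0616 and an adjusted p of 0.536 (edgeR). For 21 mo against 18 mo the value was -0.28 ± 0.30 (SE), and it was -0.67 when replicate 3 at 21 mo was left out. The treatment comparison gave -0.37 ± 0.30 (SE) with all libraries and 0.014 without that replicate.

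Sirt7 is the nucleolar sirtuin, known for its association with RNA polymerase I and for removing acetyl groups from histone H3. It lies on chromosome 11 from 120618372 to 120625240 on the minus strand. Its CPM was 55.4, 61.9 and 58.4 at 18 mo, 38.7, 36.0 and 44.6 at 21 mo, and 44.1, 39.1 and 41.0 with O304. All 6 libraries of the older groups lay below all 3 of the 18 mo group, and the older groups overlapped each other. The 21 mo mean was 32.1% lower than at 18 mo by the fit, a log2 fold change of -0.56 ± 0.11 (SE) with an unadjusted p of 0.000846, which ranked 198 among 15902 genes, and an adjusted p of 0.0626 (edgeR). DESeq2 on all libraries gave this difference an adjusted p of 0.00310. Against 18 mo the 21 mo/O304 group was 29.3% lower, at -0.50 ± 0.11 (SE), with an unadjusted p of 0.00173, rank 80, and an adjusted p of 0.323 (edgeR). Between the older groups the log2 fold change was 0.06 ± 0.11 (SE), with an adjusted p of 0.776 (edgeR). Replicate 3 of the 21 mo group, which stood apart in its tubule markers, had the highest Sirt7 level of its group. With that library left out, the log2 fold change for 21 mo against 18 mo was -0.67, with an adjusted p of 0.0481 (edgeR).

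The cytosolic member Sirt2, which deacetylates tubulin and metabolic enzymes, lies on chromosome 7 from 28766735 to 28788661 on the plus strand. It measured 85.4, 77.6 and 82.7 CPM at 18 mo, 73.9, 69.1 and 68.4 CPM at 21 mo, and 80.5, 75.1 and 82.8 CPM in the 21 mo/O304 group. The 21 mo libraries were below all 6 others by a narrow margin, and the other groups overlapped. The log2 fold change was -0.22 ± 0.10 (SE), a difference of -14.0%, for 21 mo against 18 mo, with an adjusted p of 0.202 (edgeR). After O304 it differed from 21 mo by 0.17 ± 0.10 (SE), with an adjusted p of 0.327 (edgeR). Sirt2 varied little around its group means, with a biological coefficient of variation of 13.3%, at percentile 2.08 of all genes tested. In contrast to Sirt3, its level in replicate 3 of the 21 mo group was close to that in replicate 2.

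Sirt3, the main mitochondrial deacetylase, acts on enzymes of fatty acid oxidation and on manganese superoxide dismutase. It lies on chromosome 7 from 140863666 to 140882309 on the minus strand. Its counts were 981, 1143 and 1168 at 18 mo, 780, 502 and 340 at 21 mo, and 911, 923 and 938 with O304. These correspond to 60.8, 70.4 and 66.1 CPM, to 52.2, 28.5 and 15.6 CPM, and to 53.0, 55.0 and 59.7 CPM. The 21 mo libraries were the lowest of all, but replicate 1 missed the lowest 21 mo/O304 library by under 1 CPM, and the 21 mo/O304 libraries were in turn all below the 18 mo libraries. The 21 mo mean was 32.1 CPM ± 18.6 (SD, n = 3), a coefficient of variation of 57.8% beside 7.37% at 18 mo and 6.19% in the 21 mo/O304 group.

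For Sirt3 the log2 fold change of 21 mo against 18 mo was -1.04 ± 0.35 (SE), which is 51.3% lower, with an unadjusted p of 0.0152 and an adjusted p of 0.113 (edgeR). DESeq2 on all libraries gave an adjusted p of 0.0458. With 21 mo replicate 1 left out the value was -1.56, with an adjusted p of 0.00528 (edgeR), and with replicate 3 left out it was -0.72. Between 21 mo/O304 and 21 mo the log2 fold change was 0.80 ± 0.35 (SE), or 74.6% higher, with an unadjusted p of 0.0452 and an adjusted p of 0.234 (edgeR). Leaving out 21 mo replicate 1 gave 1.33, with an adjusted p of 0.00968 (edgeR), and leaving out replicate 3 gave 0.48. Against 18 mo the 21 mo/O304 group differed by -0.23 ± 0.34 (SE), with an adjusted p of 0.880 (edgeR). Sirt3 is labelled in the study's own heatmap of these libraries, so its direction is not independent evidence.

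Sirt4, a mitochondrial lipoamidase and ADP-ribosyltransferase that restrains glutamate dehydrogenase, lies on chromosome 5 from 115478010 to 115484725 on the minus strand with no overlapping gene. It measured 14.8, 13.9 and 12.1 CPM at 18 mo, 11.8, 8.70 and 6.14 CPM at 21 mo, and 11.3, 12.3 and 11 CPM in the 21 mo/O304 group. As for Sirt3, replicate 1 of the 21 mo group was near the other groups and replicate 3 was lowest. The log2 fold change of 21 mo against 18 mo was -0.62 ± 0.23 (SE), with an unadjusted p of 0.0264 and an adjusted p of 0.143 (edgeR). With 21 mo replicate 1 left out it was -0.86, with an adjusted p of 0.0194 (edgeR). The 21 mo/O304 group differed from 21 mo by 0.38 ± 0.23 (SE), with overlapping libraries and an adjusted p of 0.355 (edgeR). Leaving out replicate 1 at 21 mo gave 0.63 and leaving out replicate 3 gave 0.18.

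Sirt5, which removes succinyl and malonyl groups, lies on chromosome 13 from 43365496 to 43395203 on the plus strand, also with no overlapping gene. It measured 12.9, 11.9 and 10.9 CPM at 18 mo, 10.9, 9.09 and 8.93 CPM at 21 mo, and 11.5, 8.94 and 11.5 CPM in the 21 mo/O304 group. The groups overlapped in all 3 comparisons. The log2 fold change was -0.30 ± 0.17 (SE) between 21 mo and 18 mo, with an adjusted p of 0.292 (edgeR), and 0.14 ± 0.17 (SE) between 21 mo/O304 and 21 mo, with an adjusted p of 0.634 (edgeR). With 3 libraries a group, the exact two-sided permutation test on mean log2 CPM cannot give a p under 0.1, and it gave 0.1 for each sirtuin and comparison in which the libraries did not overlap.

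**Figure D3:**
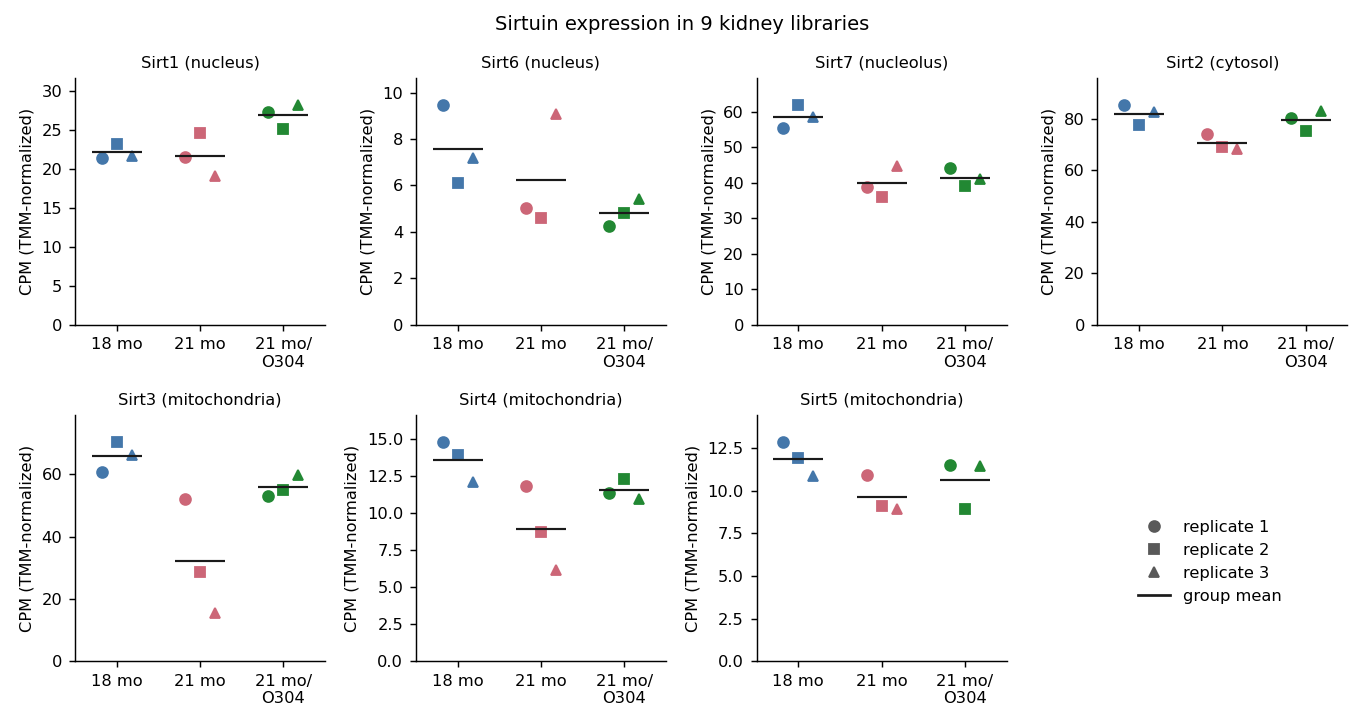
TMM-normalized CPM of each sirtuin in the 9 libraries, with 1 point per library shaped by replicate and a bar at the group mean. Sirt7 is lower in all 6 libraries of the older groups, Sirt1 is higher in the 3 libraries with O304, and the 21 mo points of Sirt3 run from 15.6 to 52.2 CPM.

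Within the 21 mo group, the mitochondrial sirtuins Sirt3 and Sirt4 were ordered like the proximal tubule markers. Replicate 1 had 52.2 CPM of Sirt3, 11.8 CPM of Sirt4 and a marker sum of 12237 CPM. Replicate 2 had 28.5, 8.70 and 6056 CPM, and replicate 3 had 15.6, 6.14 and 1513 CPM. Sirt2, at 73.9, 69.1 and 68.4 CPM, and Sirt5, at 10.9, 9.09 and 8.93 CPM, had the same order. Sirt7 did not share it, with 38.7, 36.0 and 44.6 CPM, nor did Sirt1 and Sirt6. Markers of macrophages ran the other way, at 384, 445 and 1236 CPM, and so did those of fibroblasts, at 110, 455 and 1053 CPM. The part of these cell types in the Sirt3 and Sirt4 differences was not tested. Without replicate 3, where the tubule markers were lowest, the log2 fold changes of Sirt3 and Sirt4 for 21 mo against 18 mo were -0.72 and -0.42. Replicate 1 of the 21 mo group, with 12237 CPM of tubule markers beside 11530 to 15006 CPM at 18 mo, had 38.7 CPM of Sirt7 beside 55.4 to 61.9 CPM. The 21 mo/O304 libraries, with 12860 to 13912 CPM of tubule markers, had 39.1 to 44.1 CPM of Sirt7. The part of cell types in the Sirt7 difference was not tested.

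**Figure D4:**
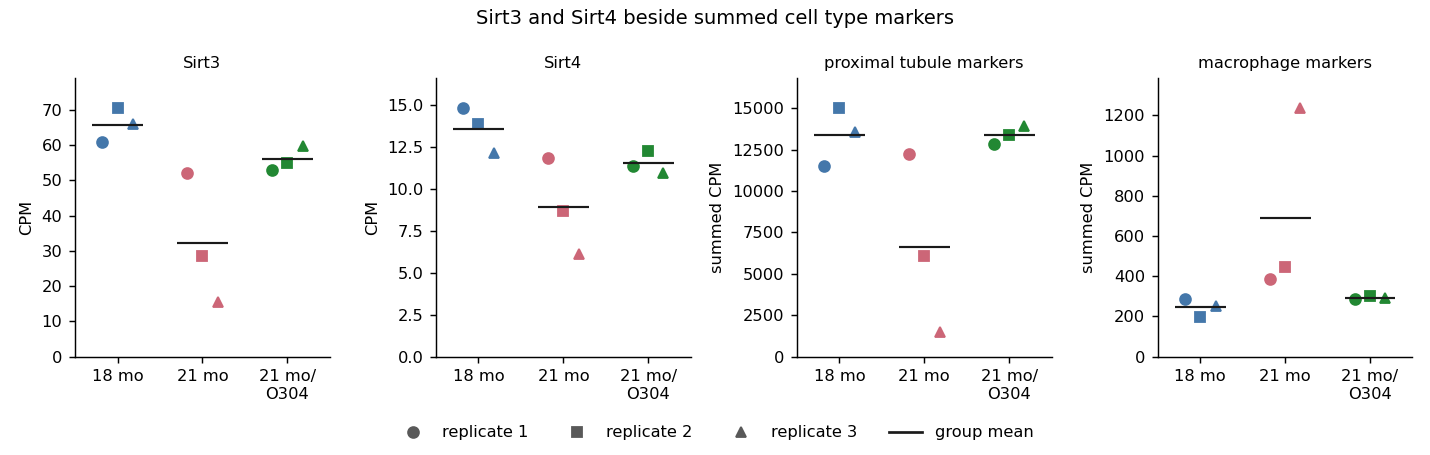
CPM of Sirt3 and Sirt4 beside the summed CPM of 6 proximal tubule markers and 6 macrophage markers in each library, with a bar at the group mean. In the 21 mo group Sirt3, Sirt4 and the tubule markers are all highest in replicate 1 and lowest in replicate 3, and the macrophage markers are highest in replicate 3.

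Other markers moved less clearly with the sirtuins. The 6 markers of the thick limb, distal tubule and collecting duct summed to 3824 to 8167 CPM at 18 mo, 3342 to 7033 CPM at 21 mo and 2988 to 4980 CPM in the 21 mo/O304 group. The 4 podocyte markers were between 194 and 362 CPM in 8 libraries and at 572 CPM in replicate 3 of the 21 mo group, which also had the lowest endothelial sum, 163 CPM beside 178 to 466 CPM. In the 21 mo/O304 group, where Sirt1 was highest, lymphocyte markers summed to 213 to 689 CPM, beside 103 to 224 CPM at 18 mo and 94.1 to 616 CPM at 21 mo. Adipocyte markers summed to 135, 9.60 and 111 CPM there and to 0.123 to 8.37 CPM in the other 6 libraries, of which 5 had from 1 to 4 of the 5 markers at 0 counts. Replicate 2 of the 21 mo/O304 group, with few adipocyte reads, had 25.2 CPM of Sirt1, the lowest of its group but above all libraries without O304. Replicate 3 of the 21 mo group was the only library with a lymphocyte marker at 0. The part of these cells in the Sirt1 difference was not tested.

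The spans of Sirt2, Sirt3 and Sirt7 share bases with other genes that had reads, and reads in the shared bases cannot be told apart. For Sirt2 and Sirt3 this is because the library kit does not mark strand, and for Sirt7 because its neighbours lie on the same strand. Sirt3 shares 342 bases with Psmd13, a proteasome subunit, and 707 bases with Ric8a, both on the opposite strand. Psmd13 differed by -0.13 between 21 mo and 18 mo on the log2 scale and Ric8a by 0.43, neither with an adjusted p under 0.05 (edgeR), beside -1.04 for Sirt3. Sirt7 shares 124 bases with Mafg, a small Maf transcription factor on the same strand, and 54 bases with the microRNA gene Mir6936, which had 0 counts. Mafg had a log2 fold change of -0.44 between 21 mo and 18 mo and 0.48 between 21 mo/O304 and 21 mo, with adjusted p-values of 0.0977 and 0.175 (edgeR). Sirt7 was at -0.56 and 0.06 in the same comparisons. Sirt2 shares 778 bases with Nfkbib, an inhibitor of NF-κB, which differed by -0.24 and -0.05 in these comparisons. The part of shared reads in the sirtuin differences was not tested.

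The genes whose log2 CPM was most like each sirtuin over the 9 libraries were listed among the protein-coding genes tested, as a description. For Sirt3 they were Afg3l1, a subunit of a mitochondrial protease, and Tango2, both with Pearson's r of 0.996. For Sirt4 they were Slc22a7, an organic anion transporter, with r of 0.986, and Plekha7, a junction protein, with 0.982. Ypel3 and Exosc3, an RNA exosome subunit, were closest to Sirt2 with r of 0.968 and 0.966, and Spag7 and Parl, a rhomboid protease of mitochondria, to Sirt5 with 0.964 and 0.962. For the nuclear sirtuins they were Ccdc181 and Snrnp48, a protein of the minor spliceosome, for Sirt1 with r of 0.939 and 0.935, the elongation factor Eef2 and the splicing factor Sf3a2 for Sirt6 with 0.961 and 0.951, and Nmnat3 and Mbd3 for Sirt7 with 0.958 and 0.954. Nmnat3 makes NAD+ and Mbd3 is a subunit of a chromatin remodelling complex. The number of genes with r above 0.9 was 1200 for Sirt3 and 707 for Sirt4, and 13 for Sirt1, 22 for Sirt6, 39 for Sirt5, 53 for Sirt2 and 76 for Sirt7, out of 13915. Within the family, Sirt3 and Sirt4 were most alike, with r of 0.951, and Sirt1 and Sirt6 least, with r of -0.751. These correlations share 3 group means and 1 library that stands apart, so they carry no test.

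The genes that supply, compete with, regulate or are acted on by the sirtuins were taken as 9 lists of 110 genes, of which 101 were tested. edgeR gave an adjusted p under 0.05 to 0 of the 101 in each comparison. At an unadjusted p under 0.05 the count was 26 between 21 mo and 18 mo, 18 between 21 mo/O304 and 21 mo and 7 between 21 mo/O304 and 18 mo, where 26.1%, 20.7% and 9.66% of all genes were, so the linked genes were called no more often than genes at large. DESeq2 on all libraries called 12, 5 and 1 of them, beside 12.3%, 6.07% and 0.869% of all genes. With 21 mo replicate 1 left out the edgeR counts in the first 2 comparisons were 42 and 39, beside 25.4% and 23.1% of all genes. Genes below are given by their log2 fold change in the edgeR fit.

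For the enzymes of NAD+ salvage and synthesis, 9 of 10 tested members were lower at 21 mo than at 18 mo, 5 of them at an unadjusted p under 0.05 (beside 12% of all genes), with a median of -0.53. In the 21 mo/O304 group 10 of 10 were higher than at 21 mo, with a median of 0.43. At an unadjusted p under 0.05 2 of 10 were higher, beside 8.27% of all genes. Against 18 mo the median was -0.06. Nampt, the rate-limiting enzyme of the salvage of nicotinamide, was the 1 member above 0 at 21 mo, at 0.07 ± 0.18 (SE), and it was at 0.16 ± 0.18 (SE) for 21 mo/O304 against 21 mo. The member with the smallest p at 21 mo was Naprt, which starts the route from nicotinic acid, at -0.64. Next came Qprt, which starts the route from quinolinate, at -0.74, the nicotinamide riboside kinase Nmrk1 at -0.78 and the mitochondrial Nmnat3 at -0.45. These 4, drawn for their small p, and Nadsyn1 at -0.75 were lower without overlap between the libraries. The same held for 15.3% of all genes. Nmrk1 measured 77.5, 96.2 and 71.7 CPM at 18 mo, 51.4, 58.5 and 32.7 CPM at 21 mo, and 77.2, 99.9 and 55.6 CPM in the 21 mo/O304 group, where it differed from 21 mo by 0.71 with overlapping libraries. Nadk, the kinase that makes NADP+, was at 0.45 for 21 mo/O304 against 21 mo without overlap. Nmnat1 at 0.51 and Nadsyn1 at 0.55 were also higher there without overlap, beside 10.8% of all genes.

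In the kynurenine route from tryptophan to NAD+, 5 of 6 tested members were lower at 21 mo, with a median of -1.06. In 21 mo/O304 5 of 6 were higher than in 21 mo, with a median of 1.22. At an unadjusted p under 0.05, 1 was lower and 1 higher at 21 mo, beside 12% and 14% of all genes. In the treatment comparison 2 were higher, beside 8.27%. Afmid was at -1.30 and 1.42 in the 2 comparisons and Haao at -1.41 and 1.18. Kynu, the kynureninase, went the other way, at 1.5 and -0.94. Acmsd, which diverts the route away from NAD+, was at 1.27 in the second comparison, with 136, 72.7 and 30.7 CPM at 21 mo and 147, 201 and 230 CPM with O304. The 21 mo libraries of Acmsd had the order of the proximal tubule markers.

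Among the other consumers of NAD+ and the enzymes that clear nicotinamide, 9 of 10 tested members were higher at 21 mo than at 18 mo. The median was 0.42, and 4 of 10 were higher at an unadjusted p under 0.05, beside 14% of all genes. In 21 mo/O304 against 21 mo 8 of 10 were lower, with a median of -0.46. At an unadjusted p under 0.05 3 of 10 were lower, beside 12.4% of all genes. Cd38, an NAD+ glycohydrolase of immune cells, measured 7.0, 6.65 and 9.56 CPM at 18 mo, 13.0, 8.58 and 41.2 CPM at 21 mo, and 9.48, 16.7 and 12.9 CPM in the 21 mo/O304 group, so its 21 mo mean rested on replicate 3, the library with the most macrophage marker reads. Its relative Bst1 was at 1.77 and -2.37, and Nnmt, which methylates nicotinamide, at 1.51 and -1.88, both also highest in replicate 3 of the 21 mo group. Parp1, the main nuclear PARP, stayed between 45.1 and 50.6 CPM in all 9 libraries. Parp3 was at -0.70 in the treatment comparison and Parp4 at 0.44 at 21 mo against 18 mo. Both are among the members counted above at an unadjusted p under 0.05.

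**Figure D5:**
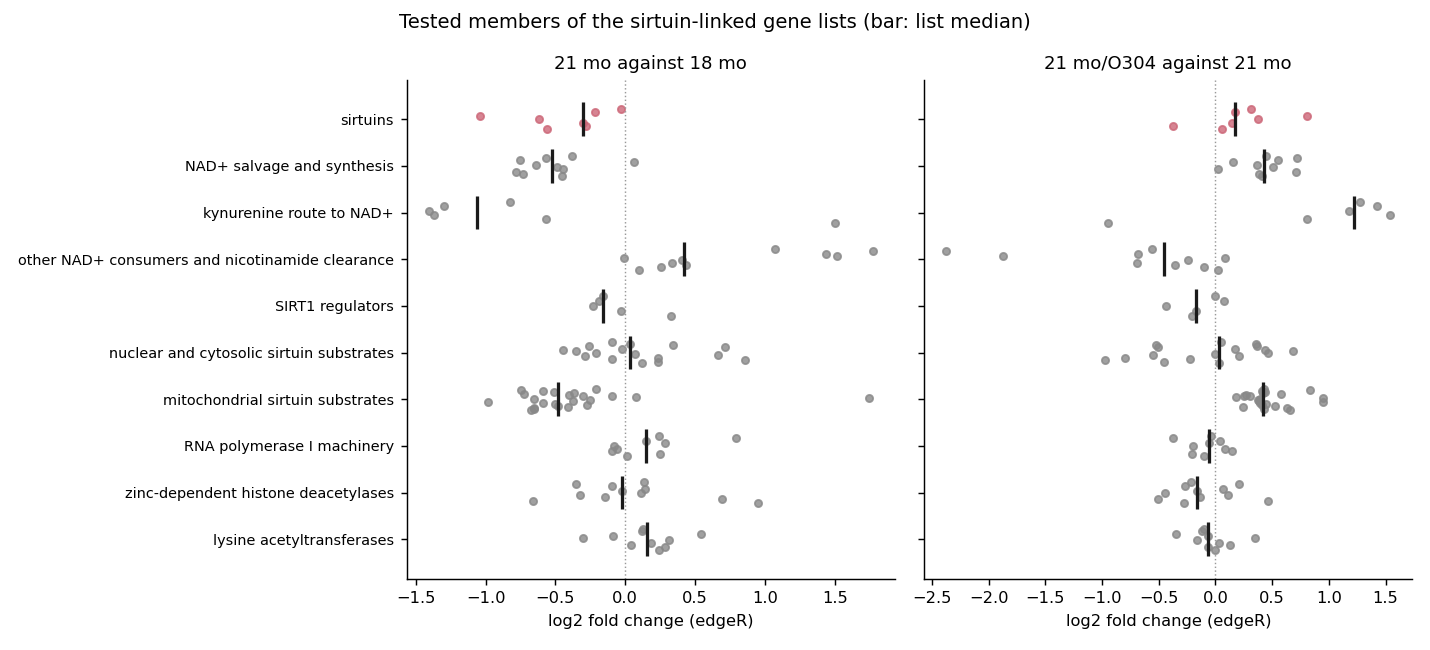
log2 fold change of each tested member of the sirtuin list and 9 linked lists, comparing 21 mo with 18 mo (left) and 21 mo/O304 with 21 mo (right), with a bar at each list's median. The medians of the sirtuins, the NAD+ lists and the mitochondrial substrates lie on opposite sides of 0 in the panels, which share the 21 mo libraries. So do those of the RNA polymerase I machinery and the lysine acetyltransferases. The median over all genes tested, not drawn, was 0.03 and -0.02.

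Among mitochondrial proteins that Sirt3, Sirt4 or Sirt5 act on, 21 of 23 tested genes were lower at 21 mo than at 18 mo, 4 of them at an unadjusted p under 0.05 (beside 12% of all genes), and the median was -0.48. In 21 mo/O304, 23 of 23 were higher than at 21 mo, with a median of 0.42, but 2 of 23 at an unadjusted p under 0.05 is near the 8.27% of all genes, and against 18 mo the median was -0.02. Mlycd, the malonyl-CoA decarboxylase, was at -0.98 and 0.95 and the ribosomal protein Mrpl10 at -0.59 and 0.39. Idh2, the NADP+-linked isocitrate dehydrogenase that Sirt3 activates, was at -0.65 at 21 mo, and Sod2, manganese superoxide dismutase, measured 343, 195 and 116 CPM in the 21 mo libraries beside 329 to 382 CPM in the other 6, again in the order of the tubule markers.

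The nuclear and cytosolic proteins that sirtuins act on had no common direction, with 9 of 17 higher and 8 of 17 lower at 21 mo and a median of 0.03. At an unadjusted p under 0.05, 3 of 17 were higher at 21 mo than at 18 mo, beside 14% of all genes. They were the hypoxia factor Hif1a at 0.72, the cytokine-responsive Stat3 at 0.86 and the NF-κB subunit Rela at 0.67. In 21 mo/O304 against 21 mo 6 of 17 were lower at an unadjusted p under 0.05, beside 12.4% of all genes, and 1 of 17 was higher, beside 8.27%. In that comparison Hif1a, Stat3 and Rela were at -0.50, -0.98 and -0.55. Ppargc1a, which encodes PGC-1α, was at 0.07 ± 0.24 (SE) and -0.0036 ± 0.24 (SE). Of the 5 regulators of Sirt1, Usp22 was at 0.33 at 21 mo, while Ccar2, which inhibits Sirt1, was at -0.16 and -0.0029 and Rps19bp1, which activates it, at -0.03 and -0.17 in the 2 comparisons. For the RNA polymerase I machinery linked to Sirt7, 6 of 9 members were higher and 3 of 9 lower at 21 mo, with a median of 0.15. At an unadjusted p under 0.05, 1 of 9 was higher, beside 14% of all genes. This was the nucleolar member Npm1, at 0.80, while Sirt7 was at -0.56.

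The enzymes that share the sirtuins' reaction without NAD+, the zinc-dependent histone deacetylases, had a median of -0.03 at 21 mo, with 5 of 11 higher and 6 of 11 lower. Hdac8 at -0.66 and Hdac5 at -0.32 were lower at an unadjusted p under 0.05, 2 of 11 beside 12% of all genes. Of the lysine acetyltransferases, which act in the opposite direction, 8 of 10 were higher at 21 mo, with a median of 0.16, and 3 of them, Hat1 at 0.54, Kat7 at 0.28 and Kat5 at 0.31, had an unadjusted p under 0.05, beside 14% of all genes. In 21 mo/O304 against 21 mo the medians of these lists were -0.16 and -0.07.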

How the data were processed

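Kidney RNA of 9 libraries was sequenced after preparation with a kit that does not mark strand. The authors filtered paired-end reads, used HISAT2 2.0.5 for alignment and featureCounts 1.5.0-p3 for counting, and the submitters' processing notes name GRCm38 and mm10. Counts were deposited as raw whole numbers, and the deposited FPKM were computed by the authors from count and gene length. The handling of reads that map to several places is not given in the sources used here. Columns of the authors' own DESeq2 1.20.0 results (fold changes, p-values, group means) were not used.

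Groups and replicate numbers were those of the sample titles. From the counts, a single edgeR model (version 4.0.16 under R 4.3.3) covered the 9 libraries, with TMM normalization, filterByExpr (minimum count 10, minimum total 15), 3 group means and 6 residual degrees of freedom. The quasi-likelihood test was two-sided with Benjamini-Hochberg adjustment over 15902 genes at 0.05. The study's methods name DESeq2, which was run as an alternative (1.42.0), beside limma 3.58.1 (voom with sample quality weights, and trend on log2(FPKM + 1) above a mean of 0.5). CPM were TMM-normalized, and log2 CPM had a prior count of 2. DESeq2 on the 6 libraries compared was added after seeing the data. The fits were tested on simulated data. Of each linked list, the up to 4 tested members with the smallest p in a comparison were drawn on, along with Nampt, Ccar2, Rps19bp1 and Ppargc1a, the 2 genes most like each sirtuin and genes overlapping one. Parp1, Nadsyn1, Nmnat1 and R3hdm4 fall outside this rule and were chosen after their values were seen. The members and lists were chosen with earlier results of these data known. No sequences are printed, and the position of each gene is that of the authors' table. Results that need a withheld item are not reported here.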

Additional observations from a re-analysis of the deposited data

How the results depend on the processing

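With edgeR and all libraries 0 sirtuins passed the threshold in each comparison, and 0 did with DESeq2 size factors in edgeR, upper-quartile normalization, either filter on counts, only the 6 libraries compared, limma-trend on FPKM and the replicate block. For 21 mo against 18 mo the count was 2 with DESeq2, 6 with limma voom with quality weights, 1 with DESeq2 on the 6 libraries compared, 3 at an unadjusted p, and from 0 to 3 when leaving out each library in turn. Between 21 mo/O304 and 21 mo it was 3 with voom, 2 at an unadjusted p and from 0 to 1 when leaving out a library. For 21 mo/O304 against 18 mo it was 1 with voom, 1 with DESeq2 on the 6 libraries and 1 at an unadjusted p. Of the linked genes, for 21 mo against 18 mo, DESeq2 called 12, every gene with at least 1 count 2, voom 69, DESeq2 on the 6 libraries 4 and an unadjusted p 26, and leaving out a library gave 0 to 42. Between 21 mo/O304 and 21 mo these were 5 with DESeq2, 52 with voom, 2 with DESeq2 on the 6 libraries, 18 at an unadjusted p and 0 to 39. For 21 mo/O304 against 18 mo they were 1 with DESeq2, 1 with only the 6 libraries, 1 with voom, 4 with DESeq2 on the 6 libraries, 7 at an unadjusted p and 0 to 1. Of all genes, DESeq2 on all libraries called 12.3%, 6.07% and 0.869% in the 3 comparisons. An unadjusted p under 0.05 held for 26.1%, 20.7% and 9.66%. For 21 mo against 18 mo voom called 26.6% of all genes lower alone. Between 21 mo/O304 and 21 mo it called 21.2% higher alone. Where no share of all genes is given, the counts are not read as a result about the sirtuins or linked genes. The causes were not tested.

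Of the sirtuins' log2 fold changes under the alternatives, 371 kept their direction and side of the threshold, 19 passed it in the same direction and 9 changed sign, all of them values near 0 or of Sirt6. Sirt1 for 21 mo against 18 mo was at 0.012 with upper-quartile normalization and 0.15 with voom, and from -0.14 to 0.041 when leaving out each library. For 21 mo/O304 against 21 mo, Sirt6 was at 0.032 with voom and from -0.54 to 0.014, and Sirt7 from -0.0077 to 0.16. Sirt2 for 21 mo/O304 against 18 mo was from -0.081 to 0.0034. The median over all genes moved by less than 0.1 under every scaling.

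The deviations of same-numbered libraries from their group means correlated at -0.130 to 0.175, and those of differently numbered libraries at -0.263 to 0.202. The same-numbered libraries thus did not stand out, but with 3 libraries a group this cannot exclude a pairing. With the replicate block 0 sirtuins and 0 linked genes passed in each comparison. With 3 libraries a group, the SE of a sirtuin's log2 fold change ran from 0.10 for Sirt2 to 0.35 for Sirt3.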

Other observations

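The 3 genes whose pattern over the 9 libraries was closest to that of Sirt6 all lie on its chromosome. Eef2 lies on chromosome 10 from 81176631 to 81182498, Sf3a2 from 80798198 to 80804924 and R3hdm4 from 79910052 to 79921208, while Sirt6 starts at 81621785. Of the 20 closest genes to Sirt6, a number chosen after seeing the data, 4 lie on chromosome 10, which holds 4.84% of the 13915 protein-coding genes compared. For the other sirtuins 1 or 2 of the 20 closest genes lie on their own chromosome, which holds from 3.75% to 8.34% of the genes compared. The lowest share is that of Sirt5, with 2 of 20. Whether Sirt6 differs from the others in this was not tested.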
